A study of Mus musculus with 28 samples.

Results

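The 10 genes described here are transcriptional targets and feedback regulators of canonical Wnt signalling: Axin2, Znrf3, Rnf43, Nkd1, Notum, Sox9, Myc, Ephb2, Ephb3 and Cd44. They were taken by gene name, with no threshold on a measured value, from a table of 29413 genes in organoids given single BMP ligands and a table of 55416 genes in organoids given Tgfb. Each of the 10 names was found in both tables. Of the 10, 9 had a mean of at least 10 normalized counts in the BMP table and entered the test among 14746 genes. In the Tgfb table the same 9 had a mean of at least 1 TPM, a level corrected for transcript length and library size, and entered the test among 12959 genes. Notum was under both limits and is given by its values.

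The organoids were 3-dimensional epithelial cultures grown from small-intestinal crypts of wild-type C57BL/6 mice, and the age of the mice was not given in the sources used here. Crypts were seeded in ENR medium, a name that stands for EGF, noggin and R-spondin, and no BMP or Tgfb was present in it. R-spondin is an enhancer of Wnt signalling and noggin is a secreted antagonist of several BMPs, so every group had been exposed to both before the ligands were added. The BMP table held 4 untreated samples, 4 with recombinant Bmp2 and groups of 3 with Bmp7, Bmp5, Bmp4 or Bmp3, at 500 ng/ml for 24 h, with 21356426 to 24780728 reads recovered for each sample. The other table held 3 untreated samples and 3 given recombinant Tgfb at 500 ng/ml for 24 h. A further table held 1 sample of fresh Pdgfra-positive small-intestinal mesenchymal cells from PdgfraH2BeGFP mice and 1 of such cells after immortalisation with the E6 gene of a papillomavirus and sorting. No sample had Wnt signalling itself raised or lowered, so these libraries do not check that the 10 genes answer to Wnt. The labels do not say whether samples of a group came from separate mice or cultures, so p-values measure the spread between these samples, which may be technical.

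Wnt ligands bind Frizzled receptors with Lrp5 or Lrp6 as co-receptors and stop the destruction of β-catenin, which then activates target genes together with Tcf and Lef factors. Several targets feed back on the pathway. Axin2 is a scaffold of the complex that degrades β-catenin, Znrf3 and Rnf43 are ubiquitin ligases that clear Frizzled from the cell surface, Nkd1 binds Dishevelled, and Notum is a secreted enzyme that inactivates Wnt ligands. In the small intestine Wnt activity is highest at the crypt base, where Lgr5-positive stem cells and Paneth cells lie. BMP signalling is highest towards the villus, and both BMP and Tgfb ligands act through receptor serine kinases and Smad factors.

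RefSeq promoters were found for 6 of the 10 genes: Axin2, Cd44, Ephb3, Ephb2, Nkd1 and Rnf43. Printed below are the 250 bases before the start of Axin2, which fell under BMP2, and of Cd44 and Ephb3, which rose under it (assembly GRCm38.p6). Capitals mark CAAAG or its reverse complement CTTTG, the core of the Tcf and Lef motif, and AGAC or its reverse complement GTCT, the Smad box.
Axin2, chr11:108920099-108920348, plus strand: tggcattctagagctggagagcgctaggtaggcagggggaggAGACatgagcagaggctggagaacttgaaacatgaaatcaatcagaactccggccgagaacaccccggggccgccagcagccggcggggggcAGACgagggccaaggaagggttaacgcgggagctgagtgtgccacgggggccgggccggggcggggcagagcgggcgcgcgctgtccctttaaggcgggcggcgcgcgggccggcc
Cd44, chr2:102901666-102901915, minus strand: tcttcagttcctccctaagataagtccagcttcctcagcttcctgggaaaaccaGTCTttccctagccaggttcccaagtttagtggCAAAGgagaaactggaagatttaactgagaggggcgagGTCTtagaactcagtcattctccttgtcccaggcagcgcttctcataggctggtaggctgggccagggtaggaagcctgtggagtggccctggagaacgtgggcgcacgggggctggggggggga
Ephb3, chr16:21204545-21204794, plus strand: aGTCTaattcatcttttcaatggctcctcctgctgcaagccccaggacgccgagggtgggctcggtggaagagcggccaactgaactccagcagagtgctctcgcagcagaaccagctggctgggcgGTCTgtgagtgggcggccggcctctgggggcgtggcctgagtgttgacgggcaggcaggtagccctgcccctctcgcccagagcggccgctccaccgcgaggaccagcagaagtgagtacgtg
The Cd44 window held 1 match to CAAAG, at position -163 from the start, and the windows of Axin2 and Ephb3 held 0. Each of the 3 windows held 2 Smad boxes. Both motifs are common: 48.6% of 32851 promoters of this length held CAAAG and 82.9% held a Smad box, on either strand. The longer motif ATCAAAG, found in 3.21% of promoters, and the Smad GC box GGCGCC, found in 9.59%, were in none of the 3 windows. A match or its absence in these letters is a description and says nothing about binding of a factor.

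In untreated organoids of the Tgfb table, where values are per transcript length and can be compared between genes, the 10 levels spanned from 71.1 TPM for Axin2 to 0.153 TPM for Notum. Axin2 (71.1 ± 3.53 TPM, SD, n = 3) and Myc (67.5 ± 5.66) overlapped. Ephb2 followed at 56.1 ± 2.33 TPM. Cd44 (34.2 ± 3.41), Sox9 (31.5 ± 1.43) and Rnf43 (31.3 ± 2.84) overlapped with each other. Ephb3 (18.7 ± 1.60), Znrf3 (6.81 ± 0.481), Nkd1 (1.29 ± 0.419) and Notum (0.153 ± 0.0339) came lower, each separate from its neighbours in this order.

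The ligands divided the members in different ways. Fold changes are differences of log2(value + 1) from untreated organoids of the same table, and a gene was called where its limma adjusted p over all genes tested was under 0.05. Under BMP2, 3 of the 9 tested members rose (Cd44, Ephb3, Ephb2) and 3 fell (Axin2, Nkd1, Znrf3). In all, 75.1% of the genes tested were called in that comparison, 36.8% higher and 38.4% lower, so the members' 6 of 9 was no more than the share of all genes. Under BMP4, 0 rose and 8 of 9 fell, all but Rnf43, where 65.1% of genes were called, 33.7% higher and 31.4% lower. With every sample scaled to the same total, or by quantiles, the members' counts under BMP2 became 2 higher and 5 lower, all 9 fell under BMP4, Axin2 was added as 1 lower under BMP5 and BMP7, and 4 in place of 5 rose under BMP7. Under BMP5, 5 rose (Cd44, Nkd1, Ephb3, Ephb2, Rnf43) and 0 fell, where 26.3% of genes were called, 16.5% higher and 9.87% lower. Under BMP7 the 5 that rose were the same genes and 0 fell, where 32.4% were called, 19.2% higher and 13.2% lower. With the replicate number as a block, Axin2 was also called lower under BMP5 and BMP7. The comparisons of single BMPs with untreated organoids share their 4 untreated samples. The split of all called genes also moved with the scaling: the higher share was 48.9% under BMP2 and 51.7% under BMP4 as deposited, and 31.8% and 31.1% with the same total. It was 62.5% under BMP5 and 59.4% under BMP7 as deposited, and 49.8% and 48.0% with quantile scaling. Under BMP3, a divergent family member, 0 of 9 passed limma's adjusted test and 0 had an unadjusted p under 0.05, with changes from -0.07 to 0.16 on the log2 scale and 95% intervals from -0.76 to 0.74. By edgeR and DESeq2 on recovered reads the BMP3 count was also 0, and limma called 0% of all genes.

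**Figure D1:**
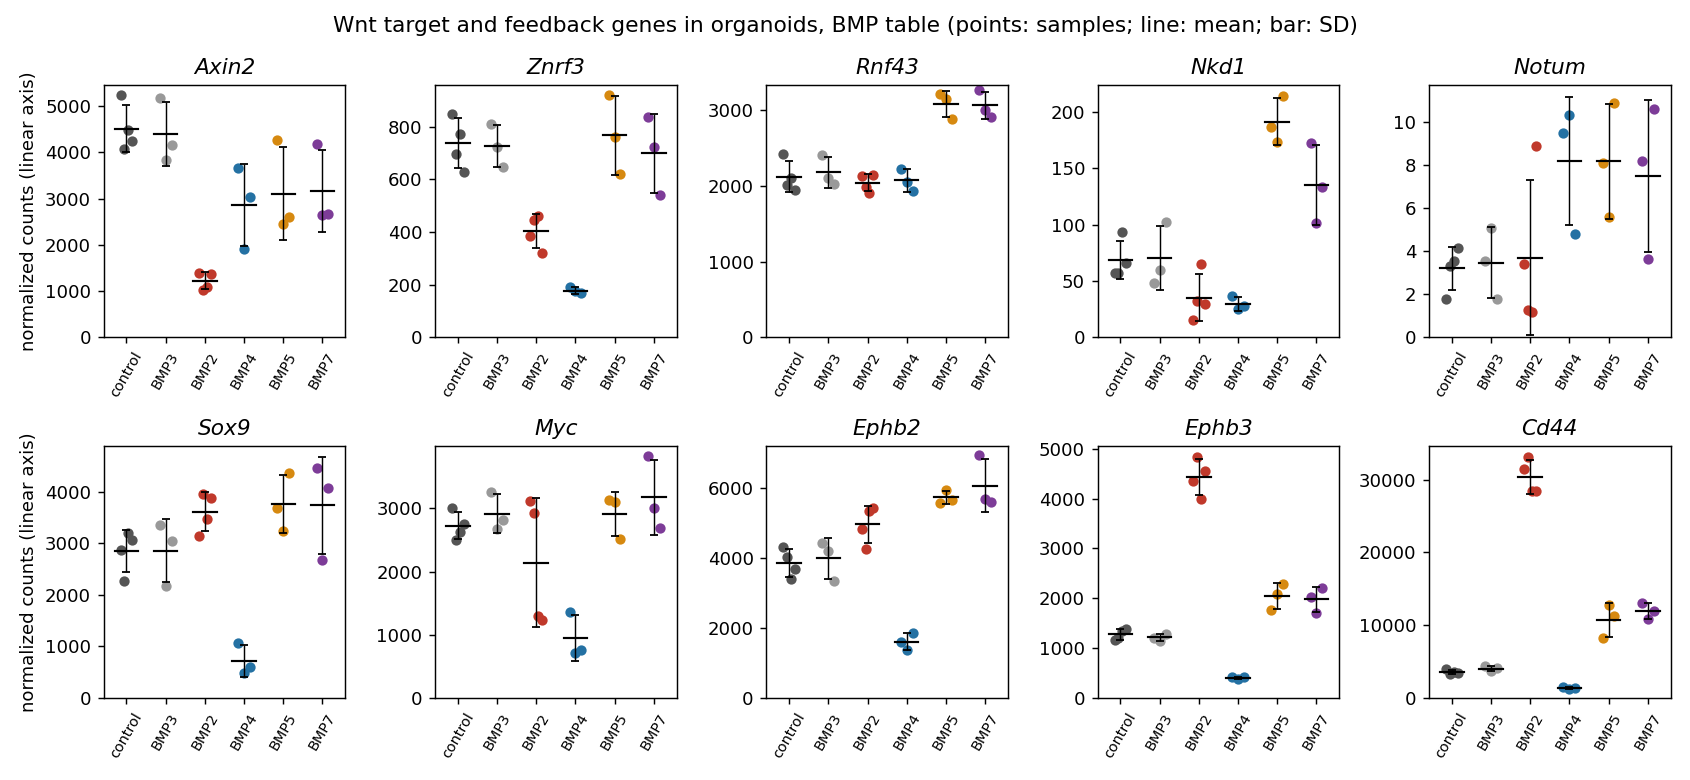
Normalized counts of the 10 genes (linear vertical axes, scaled separately for each gene) in each organoid sample of the BMP table, by ligand. Points are samples, horizontal lines are means and bars are SDs; Cd44 lies between 28400 and 33100 under BMP2 against 3350 to 4000 in untreated samples, while Axin2 lies between 1030 and 1390 against 4080 to 5250.

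**Figure D2:**
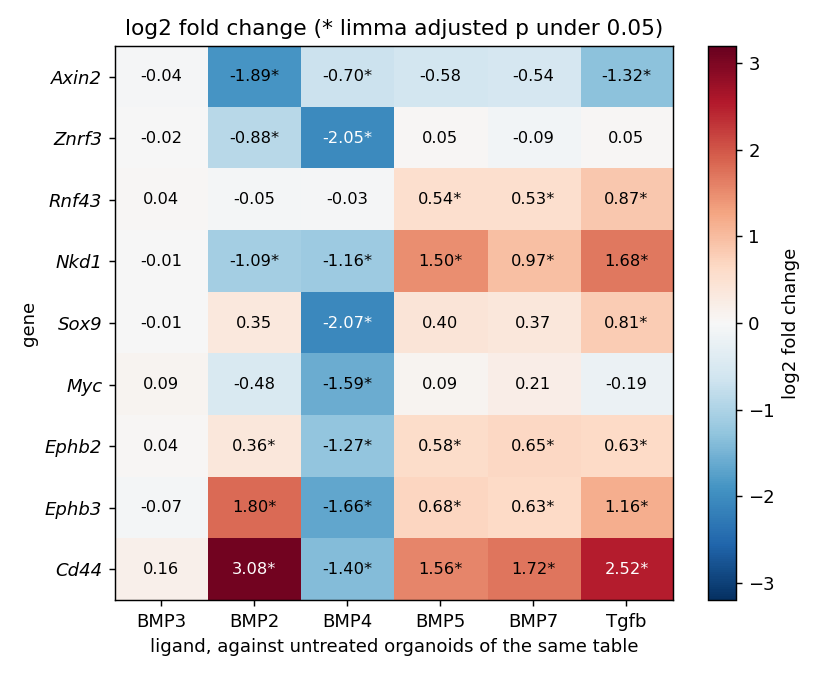
log2 fold changes of the 9 tested genes (rows) for each ligand against untreated organoids of its table (columns), with an asterisk where the limma adjusted p was under 0.05. Cd44 changes by 3.08 under BMP2 and -1.40 under BMP4, and the Ephb2 value of 0.36 under BMP2 turns negative when samples are scaled to the same total (-0.10) or by quantiles (-0.14), as does the uncalled Sox9 value of 0.35.

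Axin2 (ENSMUSG00000000142) fell under BMP2 and, less firmly, under BMP4. Its normalized counts were 5250, 4080, 4480 and 4250 in untreated samples and 1390, 1030, 1090 and 1370 under BMP2. Every BMP2 sample lay far below every untreated one, and the change was -1.89 (SE 0.206, limma adjusted p = 1.15e-07). Under BMP4 the values were 3660, 1910 and 3030, all below the untreated range. That change was -0.70 (SE 0.223, limma adjusted p = 0.0102), and it lost its call without BMP4 replicate III (-0.43, adjusted p = 0.102). Under BMP5 the values were 4260, 2460 and 2610 and under BMP7 they were 4190, 2640 and 2660. In both groups replicate II reached into the untreated range and the other samples lay below it. The changes of -0.58 (limma adjusted p = 0.0646) and -0.54 (adjusted p = 0.0715) missed the threshold. Replicate II of the untreated group was also its highest, and with the replicate number as a block both passed (-0.60, adjusted p = 0.00115 for BMP5; -0.56, adjusted p = 0.00151 for BMP7). Without the treated replicate II the values were -0.83 (adjusted p = 0.0106) and -0.76 (adjusted p = 0.0253). Both also passed with the same total (-0.62 and -0.61), with quantile scaling (-0.68 and -0.72) and when the fit held only the treated and untreated groups. Fewer cells that express a gene and less RNA per cell cannot be told apart in these bulk samples, here and for the genes below.

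The paired ubiquitin ligases Znrf3 and Rnf43 did not move together in the values as deposited. With the same total or with quantile scaling both were called lower under BMP2 and BMP4. Znrf3 (ENSMUSG00000041961) had 847, 698, 774 and 629 normalized counts in untreated samples, 384, 445, 461 and 321 under BMP2 and 190, 175 and 166 under BMP4. The BMP2 samples lay below all untreated ones and the BMP4 samples below all BMP2 ones. Znrf3 fell by 0.88 on the log2 scale under BMP2 (SE 0.152, limma adjusted p = 3.89e-05) and by 2.05 under BMP4 (SE 0.164, adjusted p = 5.62e-09). Its BMP5 and BMP7 values, from 539 to 921, spanned the untreated range, with changes of 0.05 and -0.09 (limma adjusted p = 0.867 and 0.702).

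Rnf43 (ENSMUSG00000034177) had 2420, 2020, 2100 and 1950 normalized counts in untreated samples, 2130, 1990, 1910 and 2150 under BMP2 and 2230, 2050 and 1940 under BMP4. These 3 groups overlapped, with changes of -0.05 (95% interval -0.22 to 0.12) and -0.03 (-0.22 to 0.15). Both depended on the scaling. With every sample at the same total, a setting that moved the median of all genes by -0.45 under BMP2 and -0.39 under BMP4, Rnf43 was called lower under each (-0.51, adjusted p = 9.25e-06; -0.43, adjusted p = 0.000191). Quantile scaling moved that median by only 0.03 under BMP2 and -0.01 under BMP4. With it Rnf43 was again called lower under BMP2 (-0.41, limma adjusted p = 5.81e-05) and BMP4 (-0.35, adjusted p = 0.00084). Under BMP5 Rnf43 had 3220, 3150 and 2890 counts and under BMP7 3270, 3010 and 2920. Every one of these 6 samples lay above the untreated range. The rises were 0.54 (SE 0.0883, limma adjusted p = 0.000158) and 0.53 (adjusted p = 0.000138).

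Nkd1 (ENSMUSG00000031661) moved in opposite directions under different BMPs. It was weakly expressed, with 56.8, 57.3, 93.1 and 66.1 normalized counts in untreated samples, 14.8, 32.0, 64.7 and 29.1 under BMP2 and 36.7, 25.1 and 27.5 under BMP4. BMP2 replicate IV overlapped with the untreated samples, and the BMP4 samples did not. Both falls passed the test (-1.09, SE 0.331, limma adjusted p = 0.00613; -1.16, SE 0.358, adjusted p = 0.0082). Under BMP5 the counts were 187, 173 and 214, all above the untreated range, and the change was 1.50 (SE 0.358, limma adjusted p = 0.00442). Under BMP7 they were 172, 101 and 133, also above it. That change of 0.97 was near the threshold (limma adjusted p = 0.0449). It missed the threshold with the same total (0.0625), with quantile scaling (0.0623), without the filter on low values (0.0737), without the intensity trend (0.051), without BMP7 replicate II or VI (0.181 and 0.104), and without untreated replicate II, III or VI (0.0940, 0.0990 and 0.0781).

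Notum (ENSMUSG00000042988) was close to the limit of detection. Its normalized counts were 1.78, 3.32, 3.55 and 4.13 in untreated samples, 3.41, 1.28, 1.18 and 8.86 under BMP2, 9.48, 10.3 and 4.79 under BMP4, 8.07, 5.56 and 10.9 under BMP5, and 8.17, 3.64 and 10.6 under BMP7. All BMP4 and BMP5 samples lay above the untreated ones, at a few reads each. With no filter on low values, which was the only fit that included it, its limma adjusted p was 0.119 for BMP4 and 0.213 for BMP5. A change in Notum was therefore not detectable at this depth.

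The transcription factors Sox9 and Myc fell under BMP4 and were not called under the other BMPs. Sox9 (ENSMUSG00000000567), which is expressed in stem, progenitor and Paneth cells, had 2880, 2270, 3200 and 3070 normalized counts in untreated samples and 1070, 479 and 596 under BMP4. The BMP4 samples lay well below, and the change was -2.07 (SE 0.230, limma adjusted p = 2.98e-07). Sox9 had 3150, 3960, 3480 and 3890 under BMP2, 3690, 3240 and 4370 under BMP5, and 4470, 2680 and 4080 under BMP7. BMP2 and BMP7 overlapped with the untreated samples and BMP5 lay just above them. The changes of 0.35, 0.40 and 0.37 missed the threshold (limma adjusted p = 0.146, 0.220 and 0.232), and the BMP2 value turned to -0.11 with the same total and with quantile scaling. It passed when the fit held only BMP2 and untreated samples (adjusted p = 0.0247).

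Myc (ENSMUSG00000022346), a driver of cell growth, had 3010, 2500, 2630 and 2760 normalized counts in untreated samples and 1360, 715 and 754 under BMP4. It fell by 1.59 on the log2 scale under BMP4 (SE 0.283, limma adjusted p = 7.20e-05). Under BMP2 the samples fell into pairs: replicates II and III had 3120 and 2920 counts, above or within the untreated range, and replicates IV and VI had 1300 and 1230, well below it. The change of -0.48 missed the threshold (limma adjusted p = 0.107). It passed without BMP2 replicate II (-0.70, adjusted p = 0.0189) or III (-0.67, adjusted p = 0.0305), with the same total (-0.94, adjusted p = 0.00396) and with quantile scaling (-0.84, adjusted p = 0.00391). With the replicate number as a block it was also called (-0.48, limma adjusted p = 0.0405), though not every number paired there. Under BMP5 (3130, 3100 and 2510) and BMP7 (3830, 3000 and 2690) Myc overlapped with the untreated samples, with 95% intervals of -0.50 to 0.69 and -0.39 to 0.80.

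Ephb2 and Ephb3 are Eph receptors that position cells along the crypt axis by repulsion from ephrin-B-bearing cells, and both are highest towards the crypt base. Ephb3 (ENSMUSG00000005958) had 1160, 1200, 1340 and 1390 normalized counts in untreated samples, 4360, 4840, 3990 and 4550 under BMP2 and 418, 370 and 414 under BMP4. The 3 groups were far apart, BMP2 above and BMP4 below. Ephb3 rose by 1.80 (SE 0.0985, limma adjusted p = 9.70e-12) under BMP2 and changed by -1.66 under BMP4 (SE 0.106, adjusted p = 3.97e-10). BMP5 (1760, 2080 and 2280) and BMP7 (2030, 1700 and 2200) lay between the untreated and BMP2 samples without touching either. Their rises were 0.68 (limma adjusted p = 0.000116) and 0.63 (adjusted p = 0.000167).

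Ephb2 (ENSMUSG00000028664) had 4310, 4030, 3400 and 3670 normalized counts in untreated samples, 1600, 1370 and 1840 under BMP4, 5570, 5940 and 5650 under BMP5 and 6920, 5680 and 5580 under BMP7. BMP4 lay below the untreated range and BMP5 and BMP7 above it. The changes were -1.27 (SE 0.124, limma adjusted p = 6.18e-08), 0.58 (adjusted p = 0.00199) and 0.65 (adjusted p = 0.000524). Under BMP2 the counts were 4810, 4260, 5320 and 5410, with replicate III inside the untreated range. That rise of 0.36 passed the test (SE 0.115, limma adjusted p = 0.00844) and reversed with the same total (-0.10) and with quantile scaling (-0.14).

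Cd44 (ENSMUSG00000005087), the cell-surface receptor for hyaluronan and a marker of crypt-base cells, had the widest spread of changes of the 9 tested members in the BMP table. It had 4000, 3350, 3590 and 3460 normalized counts in untreated samples and 31500, 33100, 28400 and 28500 under BMP2. No BMP2 sample came near the untreated range, and the change was 3.08 (SE 0.115, limma adjusted p = 2.30e-13). Under BMP4 the counts were 1460, 1260 and 1380, all below the untreated range, with a change of -1.40 (SE 0.124, limma adjusted p = 1.99e-08). Under BMP5 they were 8180, 12800 and 11300 and under BMP7 13000, 10800 and 11900, between the untreated and the BMP2 samples. The rises were 1.56 (SE 0.124, limma adjusted p = 1.32e-07) and 1.72 (adjusted p = 3.54e-08). Under BMP3 Cd44 had 4320, 3640 and 4120 counts, which overlapped with the untreated range, and its change of 0.16 was not called.

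Tested directly against each other, BMP2, BMP4 and BMP7 differed in most members, and BMP5 and BMP7 in 0. BMP2 exceeded BMP4 in 6 of 9 and was below it in 1, where 66.8% of all genes were called, 33.4% in each direction. Cd44 was higher under BMP2 by 4.47 (SE 0.124, limma adjusted p = 4.25e-14), Ephb3 by 3.46, Sox9 by 2.42, Ephb2 by 1.63, Znrf3 by 1.17 and Myc by 1.11 on the log2 scale, with adjusted p of 0.00194 or lower. Axin2 was the exception, lower under BMP2 than under BMP4 (-1.19, SE 0.223, limma adjusted p = 0.000114). BMP2 against BMP7 gave 2 members higher, Cd44 (1.35, limma adjusted p = 3.62e-08) and Ephb3 (1.17, adjusted p = 3.14e-08), and 6 lower, where 62.8% of genes were called, 31.4% in each direction. With the same total, the higher share of those called moved from 50.1% to 26.7%. The lower ones were Nkd1 (-2.06), Axin2 (-1.35), Znrf3 (-0.78), Myc (-0.68), Rnf43 (-0.58) and Ephb2 (-0.29). Of these, Myc (limma adjusted p = 0.0429) and Ephb2 (0.0488) were next to the threshold and lost their calls in several alternatives, Ephb2 also without BMP2 replicate II or III or BMP7 replicate II or III, and Myc without BMP2 replicate IV or VI or BMP7 replicate II or III (highest adjusted p 0.237 and 0.161). BMP4 was below BMP7 in 8 of 9, where 59.8% of genes were called, 28.4% higher and 31.4% lower, and Cd44 differed most (-3.12, SE 0.133, limma adjusted p = 5.82e-12). Here the higher share of all called genes moved from 47.5% to 28.7% with the same total. The 1 left was Axin2, at -0.16 (95% interval -0.66 to 0.34, adjusted p = 0.588). BMP5 and BMP7 differed in 0 of 9 members by limma's adjusted test, with 0 at an unadjusted p under 0.05, and also 0 by edgeR and DESeq2, where 0.0136% of all genes were called. Their differences ran from -0.17 to 0.52, and the size of a difference that could be missed varied by gene. The 95% intervals were narrow for Rnf43 (-0.19 to 0.21) and Ephb3 (-0.19 to 0.28). They were wide for Myc (-0.75 to 0.52) and Nkd1 (-0.28 to 1.33). All are from the fit without the replicate number as a block.

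Tgfb raised 6 of the 9 tested members and lowered 1, where 56.7% of all genes were called, 27.4% higher and 29.3% lower. Cd44 had 30.3, 36.6 and 35.7 TPM in untreated samples and 203.0, 190.1 and 209.5 TPM under Tgfb. The groups were far apart, with a change of 2.52 (SE 0.0907, limma adjusted p = 7.61e-06). Axin2 had 68.2, 75.0 and 70.2 TPM untreated and 26.9, 27.8 and 28.7 TPM under Tgfb. It was the 1 member that fell (-1.32, SE 0.0652, limma adjusted p = 1.97e-05). Ephb3 had 19.3, 19.9 and 16.9 TPM untreated and 45.0, 37.6 and 46.7 TPM under Tgfb. Its groups did not overlap either, and it rose by 1.16 (SE 0.108, limma adjusted p = 0.000219).

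The other rises under Tgfb were in Nkd1, Rnf43, Sox9 and Ephb2. Nkd1 went from 1.54, 1.52 and 0.806 TPM to 6.86, 6.56 and 5.45 TPM (1.68, SE 0.177, limma adjusted p = 0.000365). At this low level the size of the Nkd1 change depends on the 1 added before the logarithm. It ran from 0.529 to 2.245 over the alternatives and was called in 13 of 13. Rnf43 went from a range of 28.6 to 34.2 TPM to 54.3 to 63.1 TPM (0.87, limma adjusted p = 0.000397). Sox9 went from 30.6 to 33.1 TPM to 49.5 to 64.7 TPM (0.81, limma adjusted p = 0.00101), and Ephb2 from 53.6 to 58.2 TPM to 84.0 to 91.9 TPM (0.63, limma adjusted p = 0.000368). In each of these 4 genes every treated sample lay above every untreated one, as in 31.1% of all genes tested. Znrf3 (6.25 to 7.13 TPM untreated, 6.81 to 7.24 treated) changed by 0.05, with a 95% interval of -0.15 to 0.24. Myc (61.7 to 73.1 and 55.7 to 63.9 TPM) overlapped, at -0.19 (limma adjusted p = 0.120), and passed with quantile scaling (-0.27, adjusted p = 0.0334). Notum stayed at 0.123 to 0.268 TPM in all 6 samples. Cd44, Nkd1, Ephb3, Ephb2 and Rnf43 were each called higher under BMP5, BMP7 and Tgfb, with Nkd1 under BMP7 called in 9 of 18 alternatives. BMP5 and BMP7 share their controls, and the Tgfb samples have their own.

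**Figure D3:**
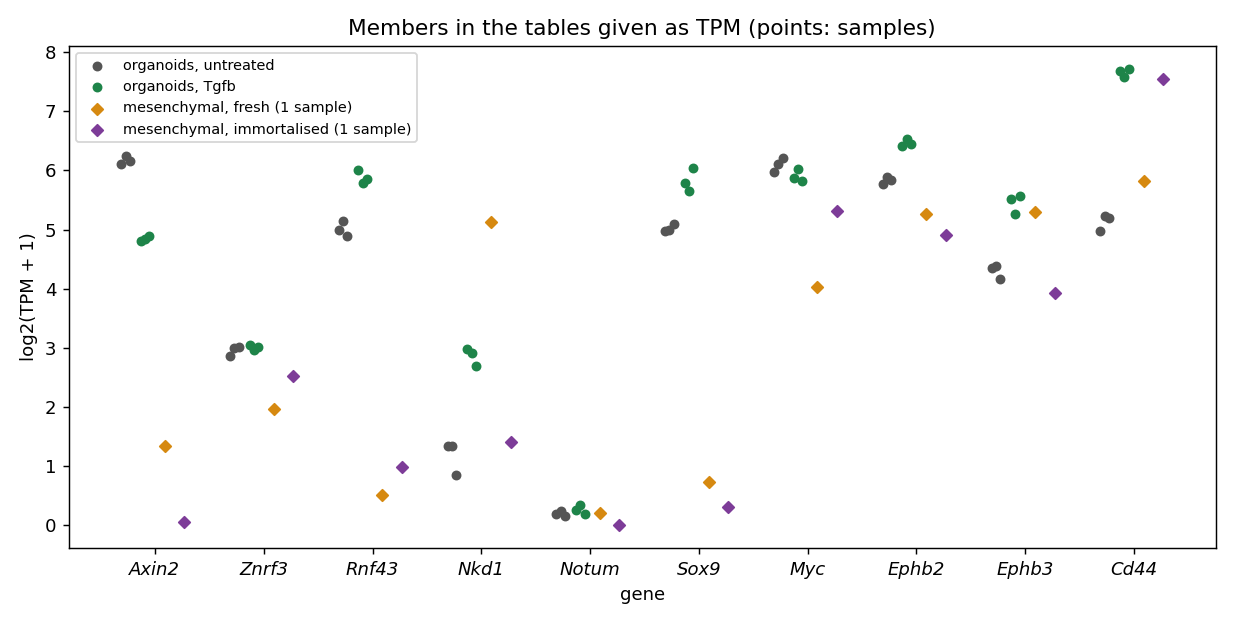
log2(TPM + 1) of the 10 genes in the tables given as TPM: 3 untreated and 3 Tgfb-treated organoid samples, and 1 fresh and 1 immortalised mesenchymal sample, each point a sample. Axin2 lies at 68.2 to 75.0 TPM in untreated and 26.9 to 28.7 in Tgfb-treated organoids, and at 1.54 and 0.0448 TPM in the mesenchymal samples, which were scaled in a table of their own.

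The median change of the stem cell markers was below that of the 9 tested members under BMP2, BMP4, BMP5, BMP7 and Tgfb. Of 24 crypt stem markers, all tested, 19 fell and 4 rose under BMP2 with a median of -2.49, against a median of -0.05 for the 9 Wnt genes and -0.03 for all genes tested. Under BMP4, 20 fell and 0 rose (median -3.53, against -1.40 for the Wnt genes and 0.04 for all). Under BMP5, 10 fell and 4 rose (median -0.57, against 0.54 and -0.03), and under BMP7, 14 fell and 3 rose (median -0.89, against 0.53 and -0.05). Under Tgfb, 19 fell and 4 rose (median -1.32, against 0.81 and -0.04). Among all genes tested the share called lower was 38.4% under BMP2, 31.4% under BMP4, 9.87% under BMP5, 13.2% under BMP7 and 29.3% under Tgfb. The share called higher was 36.8%, 33.7%, 16.5%, 19.2% and 27.4% in the same order. These medians are descriptions over lists of different genes, and the difference between the lists was not tested as such. Lgr5, Ascl2 and Tnfrsf19 of the stem list also stand in the list of further Wnt targets below. The comparison is therefore not one of Wnt targets with genes outside the pathway. With the same total and with quantile scaling the stem markers' medians were -2.94 and -2.33 under BMP2 and -3.93 and -3.64 under BMP4, and those of the Wnt genes -0.51 and -0.41 under BMP2 and -1.80 and -1.70 under BMP4. The stem markers that rose, named after their values were seen, were Mex3a, Cd24a, Prom1 and Igfbp4 under BMP2, of which 1 was still called with either scaling, Mex3a. Under BMP5 and Tgfb they were Prom1, Igfbp4, Gkn3 and Mex3a, and under BMP7 the first 3 of these. Of the proliferation genes 16 of 16 fell under BMP2 (median -4.66), 16 of 16 under BMP4 (-1.83) and 16 of 16 under Tgfb (-1.42). The falls numbered 2 of 16 under BMP5 (Aurka and Rrm2) and 1 of 16 under BMP7 (Tyms), where 9.87% and 13.2% of all genes were called lower, and 4 in each with quantile scaling. These 3 genes were also named after their values were seen.

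**Figure D4:**
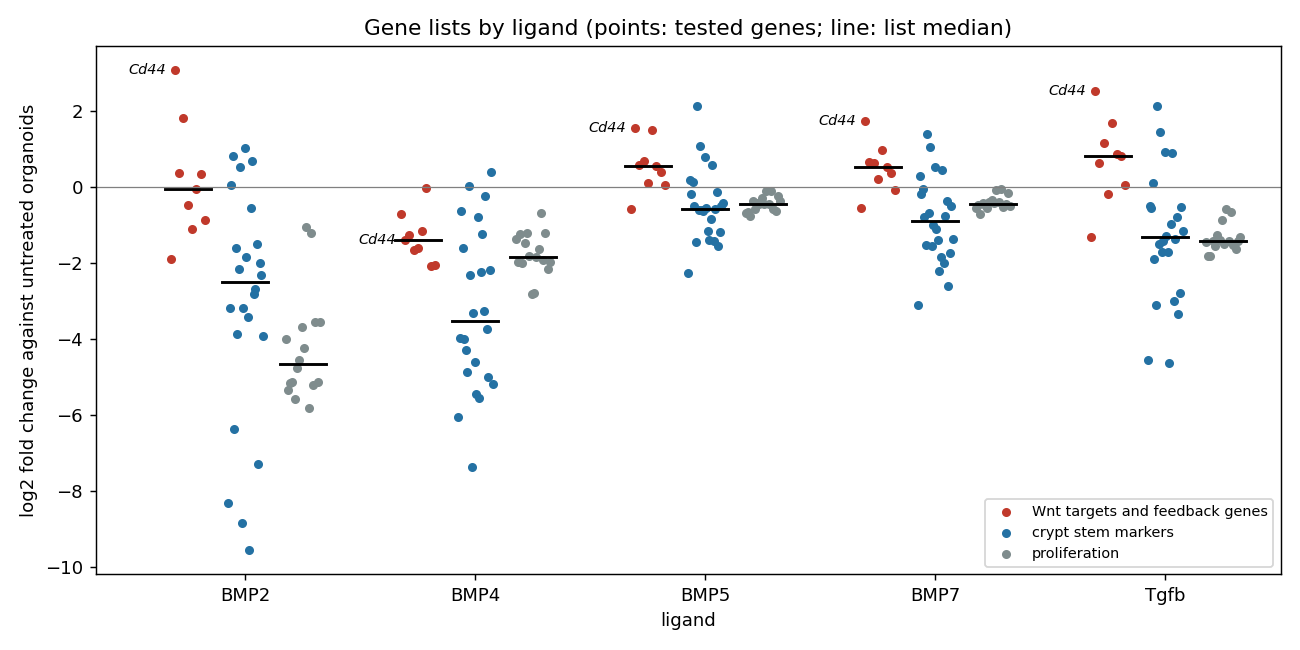
log2 fold changes against untreated organoids (vertical axis) of the tested genes of 3 lists, by ligand, with each list's median as a black line. The 9 Wnt targets and feedback genes have medians of -0.05 under BMP2 and -1.40 under BMP4, the 24 crypt stem markers -2.49 and -3.53, and Cd44 is labelled in each group.

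Lgr5 and Olfm4 put this difference into samples. Both fell further than the median stem marker under BMP2 and BMP4, and some stem markers rose under BMP2. Their ratios to Axin2 therefore describe these genes and not the whole list. Lgr5, the R-spondin receptor that marks crypt stem cells, had 3150 to 5210 normalized counts in untreated samples, 3.53 to 17.7 under BMP2 and 13.2 to 34.4 under BMP4 (-8.84 and -7.37). With so few counts left, the sizes of these changes and of the ratios to Lgr5 depend on the 1 added before the logarithm. Olfm4, another stem cell marker, had 84000 to 110000 untreated, 66.5 to 549 under BMP2 and 1520 to 3250 under BMP4. The log2 ratio of Axin2 to Lgr5 was 0.08 ± 0.34 (SD, n = 4) in untreated samples, 7.03 ± 0.71 (n = 4) under BMP2 and 6.75 ± 0.97 (n = 3) under BMP4, a rise of 6.95 and 6.67. No sample of either ligand overlapped with the untreated ones. The ratio of Axin2 to Olfm4 rose by 7.65 under BMP2, 4.85 under BMP4, 0.81 under BMP5, 1.65 under BMP7 and 3.30 under Tgfb, again with separate groups. In the exact two-sided permutation test the BMP2 differences had p = 0.0286, the BMP4 ones p = 0.0571 and the Tgfb one p = 0.1, each the smallest p that 4 against 4, 3 against 4 or 3 against 3 samples allow. After adjustment over the 18 ratio tests the exact permutation p were 0.0935 or higher, so 0 of 18 passed, and with these numbers of samples an adjusted p under 0.05 was not possible.

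The ratio of Axin2 to Lgr5 was not separated from untreated samples under BMP5, BMP7 or Tgfb. Under BMP5 Lgr5 had 2040 to 4010 normalized counts, the ratio differed from untreated by 0.03 and the groups overlapped (exact permutation p = 0.914). Under BMP7 Lgr5 had 1070 to 2050 counts and fell by 1.56 on the log2 scale, while the ratio differed by 1.02 with overlapping groups (exact permutation p = 0.114). Under Tgfb Lgr5 went from 44.7 to 62.1 TPM to 11.8 to 19.4 TPM (-1.70), and the ratio to Axin2 differed by 0.38 with overlap (exact permutation p = 0.3). Ascl2, a Wnt-dependent stem cell factor, fell under BMP2 (-3.19) and BMP4 (-3.98), had 0.18 and 0.30 under BMP5 and BMP7 without a call, and fell by 0.51 on the log2 scale under Tgfb. In these samples the ratio of Axin2 to Olfm4 was separate from untreated under all 5 ligands, and that of Axin2 to Lgr5 under BMP2 and BMP4. No ratio test passed after adjustment, and separate groups of this size also occurred under BMP3, for Cd44 to Axin2. Under BMP5 the fall of Olfm4 itself was not called (-1.39, limma adjusted p = 0.0632).

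Cd44 parted from Axin2 as well. The log2 ratio of Cd44 to Axin2 was -0.32 ± 0.05 (SD, n = 4) in untreated organoids, 4.65 ± 0.27 (n = 4) under BMP2, 1.81 ± 0.77 (n = 3) under BMP5 and 1.94 ± 0.28 (n = 3) under BMP7. The rises were 4.97, 2.13 and 2.27, and under Tgfb the rise was 3.85. BMP4 went the other way, at -1.02 ± 0.38 (n = 3), a fall of 0.70, since Cd44 fell further than Axin2. Each of these groups was separate from its untreated samples, including BMP3, whose ratio of -0.12 ± 0.13 (n = 3) was higher by 0.21. The exact permutation p were the smallest possible for each design, 0.0286, 0.0571 or 0.1.

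Among the members, Ephb3 ran closest to Cd44. Over the 20 samples of the BMP table and 11855 other genes with a mean of at least 50, Pearson's r of log2 values with Cd44 was 0.971 for Ephb3, rank 50. It was 0.786 for Ephb2, 0.748 for Sox9, 0.384 for Myc, 0.295 for Znrf3, 0.262 for Rnf43, 0.125 for Nkd1 and -0.645 for Axin2. The samples fall into ligand groups and share controls and scaling, so r is a measure of likeness only. The 5 genes most like Cd44 were Epb41l2 (0.994), Homer3 (0.992), Mmp14 (0.990), Sh3pxd2b (0.989) and Dyrk3 (0.988). Mmp14, a membrane-bound matrix protease known to cleave CD44, had a mean of 1068 normalized counts in untreated samples, 4618 under BMP2, 598.7 under BMP4, 2190 under BMP5 and 2193 under BMP7, and since it was chosen for its likeness to Cd44 this order is no separate result. The 5 most like Axin2 were Sars2 (0.977), Ddx56 (0.969), Cox20 (0.965), Dtwd2 (0.965) and Mbtps1 (0.965), and the closest other member was Znrf3 (0.449).

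**Figure D5:**
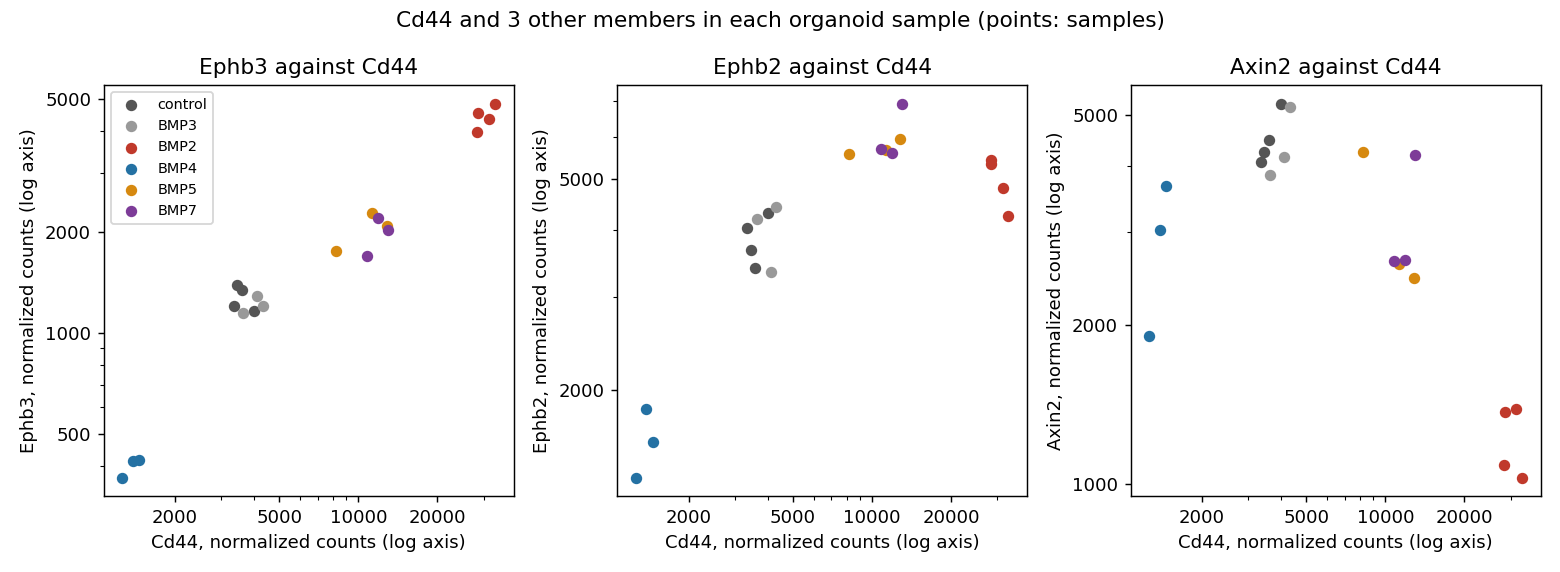
Normalized counts of Ephb3, Ephb2 and Axin2 (vertical, log axes) against those of Cd44 (horizontal, log axes) in the 20 organoid samples of the BMP table, coloured by ligand, each point a sample. Ephb3 follows Cd44 from BMP4 through untreated, BMP5 and BMP7 to BMP2 (r = 0.971), while Axin2 is lowest where Cd44 is highest (r = -0.645).

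Most genes of the Cd44 system that were tested rose where Cd44 rose. The list held enzymes that degrade hyaluronan, the ERM linkers that bind the Cd44 tail, its splice regulators and its partners Met, Spp1 and Mmp14. Of 11 tested, 11 rose under BMP2 (median 1.92), 10 under BMP5, 11 under BMP7 and 9 of 10 under Tgfb. Among all genes tested 36.8%, 16.5%, 19.2% and 27.4% were called higher under these ligands, and 33.7% under BMP4. Msn, the ERM linker moesin, rose by 5.79 under BMP2, Cemip, a hyaluronan-degrading protein, by 3.58 and the hyaluronidase Hyal1 by 3.05. Under BMP4, where Cd44 fell, 5 of 11 rose and 1 fell, Mmp14 (-0.84), and with the same total or quantile scaling 3 rose and 3 fell. A list of fetal-like and regenerative epithelial genes rose with Cd44 under BMP2 (16 of 16, median 3.35), BMP5 (14 of 16, 2.13), BMP7 (14 of 16, 2.19) and Tgfb (14 of 15, 3.64), and under BMP4 10 of 16 rose (median 1.05) and 1 fell, Ccn1 (-1.30), named after its value was seen and not called with quantile scaling. Anxa1 (6.28), Clu (5.22) and Il1rn (4.36) had the largest changes under BMP2. Both lists were chosen with earlier results of these data known, so their rise beside Cd44 is a description and no separate support.

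Counts of further Wnt targets were near the share of all genes under BMP2. Of 15 tested, 6 rose and 7 fell under BMP2, 3 and 9 under BMP4, 4 and 1 under BMP5, and 5 and 3 under BMP7, and of 9 tested 4 rose and 4 fell under Tgfb. Among all genes 36.8% were called higher and 38.4% lower under BMP2, 33.7% and 31.4% under BMP4, 16.5% and 9.87% under BMP5, 19.2% and 13.2% under BMP7, and 27.4% and 29.3% under Tgfb. This list shares Lgr5, Ascl2 and Tnfrsf19 with the stem markers. Under BMP2 its largest changes after Lgr5 were in Dkk2, a secreted modulator of Wnt co-receptors (5.22, from 0 to 1.65 normalized counts untreated to 25.9 to 81.8), and Tnfrsf19, a receptor of the Tnf receptor family (-3.92).

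Of 32 Wnt receptors and transducers tested, 15 rose and 9 fell under BMP2 and 10 and 10 under BMP4, which became 6 and 14 and 3 and 18 with the same total. As deposited, both totals were close to the shares of all genes called (75.1% and 65.1%) and show nothing particular to these genes. Under BMP5 9 rose and 2 fell, under BMP7 8 and 3, and under Tgfb 16 of 30 rose and 4 fell, where 26.3%, 32.4% and 56.7% of all genes were called. The fallen ones, named after their values were seen, were Fzd4 and Fzd5 under each of these 3 ligands, with Lgr5 under BMP7 and Tgfb and Dvl2 under Tgfb. Ctnnb1, which encodes β-catenin, rose under all 5 ligands (2.37, 0.58, 1.07, 1.20 and 1.75), but under BMP4 it was not called with the same total (0.18) or with quantile scaling (-0.05). Lrp6 was not called under any of the 5, and with the same total it was lower under BMP2 (-0.29) and BMP4 (-0.66). Lrp5 rose under BMP5 (0.38), BMP7 (0.50) and Tgfb (0.66), while its uncalled BMP2 value of 0.19 and BMP4 value of -0.20 became called falls with the same total (-0.27 and -0.60). Tcf7l2, a Tcf factor of the gut epithelium, rose under BMP2 (0.50), BMP4 (0.91) and Tgfb (0.34), and its BMP2 call was lost with the same total (0.04). Lgr4, an R-spondin receptor, rose under Tgfb (0.32) and was not called under the BMPs, apart from falls under BMP2 (-0.40) and BMP4 (-0.49) with the same total.

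Of 8 Wnt ligands and R-spondins tested, 5 rose and 2 fell under BMP2, where 75.1% of all genes were called, and the rises were led by Wnt7a (4.33), Wnt9a (4.32) and Wnt5a (4.08). The 2 that fell were Wnt9b (-3.61) and Wnt3, the ligand made by Paneth cells (-2.26), both named after their values were seen. Under BMP4 2 rose and 2 fell, under BMP5 and BMP7 4 rose and 0 fell, and under Tgfb the 1 tested was not called. Among 13 other Eph receptors and ephrins, 6 rose and 3 fell under BMP2, again no more than the share of all genes, and 5 rose and 5 fell with the same total. Under BMP4 6 rose and 6 fell, under BMP5 4 and 0, under BMP7 5 and 1, and of 10 tested 5 and 2 under Tgfb. For both lists, the shares of all genes called were 33.7% higher and 31.4% lower under BMP4 and 16.5% and 9.87% under BMP5. They were 19.2% and 13.2% under BMP7 and 27.4% and 29.3% under Tgfb. Under BMP2 Ephb6 (7.89), Epha2 (2.89) and Efna3 (-2.79) changed most. Ephb6 had 0 to 3.55 normalized counts in untreated samples and 577 to 828 under BMP2, and for genes this low the size of a change depends on the 1 added before the logarithm.

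Markers of other cell types were checked beside these results. The 9 epithelial markers were detected in every group and summed to 125840 to 142450 normalized counts in untreated samples and to 740920 to 959540 under BMP2. Summed mesenchymal markers (8 of 10 in the table) were 135.6 to 220.8 counts untreated, 71.7 to 93.0 under BMP2, 29.7 to 47.8 under BMP4, 139.3 to 189.4 under BMP5 and 72.6 to 107.7 under BMP7, with Col3a1 or Col6a2 at 0 in every group. Immune markers summed to 103.7 to 137.7 counts untreated, 103.6 to 234.0 under BMP2, 158.3 to 277.6 under BMP4, 104.9 to 146.2 under BMP5 and 97.2 to 139.7 under BMP7. Paneth cell markers summed to 120131 to 149476 counts untreated, 44485 to 111125 under BMP2, 60769 to 126243 under BMP4, 101987 to 133447 under BMP5 and 86085 to 104301 under BMP7. Enterocyte markers summed to 57130 to 103131 counts untreated, 58783 to 138681 under BMP2, 417810 to 483390 under BMP4, 49842 to 91771 under BMP5 and 48272 to 94352 under BMP7. Such sums hide genes of a list that moved in opposite directions. Under BMP7 the enterocyte gene Ada changed by 1.83 and Sis by -1.78 from untreated. In BMP2 against BMP7, Ada was higher (2.75), and Lct (-3.24) and Sis (-2.12) were lower. Of the Paneth cell markers there, Nupr1 was higher (2.01), and Pla2g2a (-4.67) and Ang4 (-2.03) were lower. The part of shifts in cell type markers in the values of the Wnt genes was not tested. In the Tgfb table Paneth cell markers summed to 16078 to 19739 TPM untreated and 11176 to 14694 TPM treated, and enterocyte markers to 4509 to 6390 and 3545 to 4484 TPM. There mesenchymal markers summed to 5.16 to 8.29 TPM untreated and 7.38 to 9.62 TPM treated, with Col1a2, Col3a1, Col6a2, Dcn and Lum at 0 in both groups.

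In the mesenchymal samples, which have no replicates and were not tested, Cd44 stood at 55.7 TPM in fresh and 185.9 TPM in immortalised cells. Ephb3 (38.1 and 14.2 TPM), Ephb2 (37.6 and 29.0), Myc (15.4 and 39.0) and Znrf3 (2.89 and 4.75) were also present. Nkd1 was at 34.1 TPM in fresh and 1.67 TPM in immortalised cells. Axin2 (1.54 and 0.0448), Sox9 (0.660 and 0.239) and Rnf43 (0.431 and 0.993) were low, and Notum was at 0.157 TPM in fresh cells and listed at 0 in immortalised ones. Cd44 and the Eph receptors were thus expressed in mesenchymal as well as epithelial samples, while Axin2, Sox9 and Rnf43 were mostly found in the organoid tables.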

How the data were processed

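RNA of 28 samples was sequenced: 20 organoid samples with BMP ligands, 6 with Tgfb and 2 mesenchymal samples. The submitters' processing notes name Trim Galore, Salmon, DESeq2 and GRCm39. The deposited BMP table holds gene counts divided by a size factor for each sample, a depth-normalized signal that is never negative. The deposited Tgfb and mesenchymal tables hold TPM values, whose depth is unknown. In the BMP table low values were whole multiples of 1 read within 0.1 read for 100.0% of 180721 values, which gave 21356426 to 24780728 reads per sample.

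log2(value + 1) was fitted with limma 3.58.1 (R 4.3.3, intensity trend), with all 6 BMP-table groups in 1 fit and the Tgfb table in its own, after filters on the mean of 10 normalized counts or 1 TPM. P-values were adjusted by Benjamini and Hochberg over all genes tested, at 0.05. Ratios between genes were compared by exact two-sided permutation tests (scipy 1.17.1). The fits were tested on simulated data. Alternatives were other pseudocounts, scalings, filters and designs, samples left out, and edgeR 4.0.16 and DESeq2 1.42.0 on recovered reads. List counts under other scalings were added after seeing the data. In the BMP table every 2 samples of a group differed by more than sampling noise, which was not checked for TPM.

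Replicate numbers in the labels were checked for pairing by correlating the deviations of same-numbered samples from their group means. For BMP3, BMP4, BMP5 and BMP7 against untreated samples every such correlation was over 0.1 (0.16 to 0.55), as it was for BMP4 and BMP5 against BMP7 (0.15 to 0.49). The pairing there comes from this check and not from a label that names a shared mouse or day. In those comparisons a blocked value is given beside each result whose call it changed.

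The 10 genes and the gene lists were chosen with earlier results of these data known. Of each other list at most the 3 largest changes past the threshold were named, with Lgr5, Olfm4, Ascl2, Lrp5, Lrp6, Ctnnb1, Tcf7l2 and Lgr4, and with the 5 genes of highest Pearson r to Cd44 and to Axin2 at a mean of at least 50. Exceptions are named as such.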

Additional observations from a re-analysis of the deposited data

How the results depend on the processing

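Counts of members called were within 1.5 times the reported count in 107 of 107 alternatives and 68 of 68 fits with a sample left out. This is a weak check. It takes the total of 9 tested members whatever their direction, and totals of 6 or more could not leave that band upward. The changed split under BMP2 with other scalings therefore passed it. For single members and comparisons, 684 of 719 values kept direction and side of the threshold, 17 newly passed, 14 no longer passed and 4 reversed. The 4 were Sox9 under BMP2 (-0.11 with the same total and -0.11 with quantile scaling) and Ephb2 under BMP2 (-0.10 and -0.14). The cause was not tested. With 1 sample left out, 443 of 468 kept both, 4 newly passed, 14 no longer passed and 7 reversed, all of them small and uncalled. Their ranges were -0.0895 to 0.0143 for Rnf43 under BMP2, -0.0849 to 0.0335 under BMP4, -0.0946 to 0.19 for Znrf3 under BMP5, -0.23 to 0.0847 under BMP7 and -0.0054 to 0.0767 under Tgfb. Ratio differences kept their direction in 36 of 36 alternatives, all of them other pseudocounts, and in 119 of 126 with a sample left out. Only the direction could change, since an adjusted p under 0.05 was not possible, and the sizes were not compared. Those that reversed were Axin2 to Lgr5 under BMP3 (-0.38 to 0.0932) and BMP5 (-0.0946 to 0.18) and Axin2 to Olfm4 under BMP3 (-0.18 to 0.16). List counts, added after seeing the data, were within 1.5 times in 137 of 160.

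The replicate numbers did not pair every sample for BMP2. Against untreated organoids BMP2 replicate III had a correlation of 0.02, while II, IV and VI had 0.20, 0.42 and 0.31. Against BMP4 and BMP7 replicate III had -0.04 and -0.11, while II and VI had 0.17 to 0.30. For Tgfb the correlations were 0.07 or lower. With the replicate block in these comparisons, Myc under BMP2 was called (-0.48, limma adjusted p = 0.0405), which made 7 members called. Ephb2 between BMP2 and BMP7 was not (-0.25, adjusted p = 0.0643). In the paired comparisons the block changed the call of Axin2 under BMP5 and BMP7 and of no other member against untreated samples.

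At 3 or 4 samples a group the exact tests of ratios cannot reach an adjusted p under 0.05. Notum, at a few reads, and the TPM tables, with no known depth, give no firm limit for low genes.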
